A study of Homo sapiens with 6 samples.

Results

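The expression of 51 genes of WNT signaling was examined in HK-2 cells exposed to TGF-β1. HK-2 (HK2 in the labels) is a human cell line that was made from the proximal tubule of a kidney by immortalisation. The genes were chosen by name and role from the 41497 named entries of the expression tables, and only the entry on a primary chromosome was used. They comprised 18 WNT ligands, 14 receptors and coreceptors, 11 inhibitors (10 of them secreted proteins, and the membrane protein KREMEN1) and 8 feedback or target genes. All libraries came from wild-type cells of this single line, maintained in medium with serum and collected at 24 h. The 3 control libraries were from untreated cells and the 3 TGF-β1 libraries from cells given TGF-β1, a profibrotic cytokine. The labels give no dose. The study's general culture methods give a TGF-β dose in serum-free medium, without naming these libraries and without saying how serum was handled in control cells.

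WNT proteins are secreted, lipid-modified ligands that bind Frizzled (FZD) receptors. With the coreceptors LRP5 and LRP6 they stabilise β-catenin, which enters the nucleus and activates genes through TCF/LEF factors. Other ligands, of which WNT5A is the best known, act mostly without β-catenin, through ROR receptors and the planar cell polarity branch. Secreted proteins of the DKK and SFRP families block the ligands or the coreceptors, and several β-catenin targets feed back on the pathway. WNT genes are active in kidney development and are switched on again in injured tubules.

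Libraries held 21.94 to 26.91 M counts (megacounts). The response to TGF-β1 was checked on SMAD7, an inhibitor of TGF-β signaling that TGF-β1 is known to induce, which was 3.12-fold higher after TGF-β1. The first TGF-β1 library stood apart from the other 2 along the second principal component, which held 9.945% of the variance, with a score of 26.9 against -13.2 and -15.1. Without it the same 18 WNT genes were called, and FZD6 was called lower in addition (edgeR adjusted p = 0.0271). Of the markers that define proximal tubule cells, LRP2 and SLC22A6 had no read in any library, while GGT1 and PAX8 had at least 979 and 3002 reads in each. The summed level of 12 proximal tubule markers was 289 to 314 in control in TPM, a share of all transcripts that accounts for gene length, and 165 to 185 after TGF-β1. Of the 8 tested, 5 were called lower, PAX8 and GGT1 among them, and 2 higher, AQP1 (28 to 123 reads, 4.30-fold) and CUBN (1.77-fold). The sum of 6 epithelial markers was 1723 to 1777 and 2138 to 2260 TPM, with KRT8, KRT18 and CDH2 called higher and KRT19 and EPCAM lower. CDH2 alone went from 221 to 421 TPM on average. CDH1 had 6 control and 3 TGF-β1 reads and was not tested. The sum of 6 fibroblast markers was 72.2 to 86.7 and 58.9 to 63.0 TPM, mostly LUM, which fell. PDGFRB rose from 39 to 413 reads (10.4-fold), while COL1A2 had 1 read in all 6 libraries together. The endothelial marker CDH5 had 62 control reads and 0 TGF-β1 reads, with sums of 4 endothelial markers of 0.617 to 1.15 and 0 to 0.0195 TPM. For 4 immune markers, mostly CD68, the sums were 189 to 202 and 112 to 149 TPM. The part of these shifts in the WNT results was not tested. In RNA from whole cultures, fewer cells of a type and less RNA per cell cannot be told apart.

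Of the 51 WNT genes, 28 passed a filter on low counts and were tested, and 18 of these (64.3%) were called changed at an adjusted p under 0.05, against 44.3% of all 14860 genes tested (edgeR quasi-likelihood F test, Benjamini-Hochberg adjustment). WNT genes were called higher in 7 cases and lower in 11, where 22.2% of all genes were called higher and 22.1% lower. Changes of at least 2-fold were found in 7 WNT genes, 3 higher (WNT5A, WNT5B and WNT9A) and 4 lower (WNT2B, WNT7B, DKK1 and RNF43). Among all genes, 9.06% were called 2-fold changed, 3.68% higher and 5.38% lower. The libraries of the groups did not overlap for 21 of the 28 genes, against 55.6% of all genes. The median log2 fold change of the 28 genes was -0.11, close to the median of 0.01 over all genes, while the median size of the change was 0.61 for these genes and 0.25 for all genes. The 6 ligands tested moved the most, with a median size of 1.59, followed by the 7 feedback or target genes with 0.70. The 11 receptors had 0.34 and the 4 inhibitors 0.15, although DKK1, 1 of these 4, changed by -1.45.

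**Figure D1:**
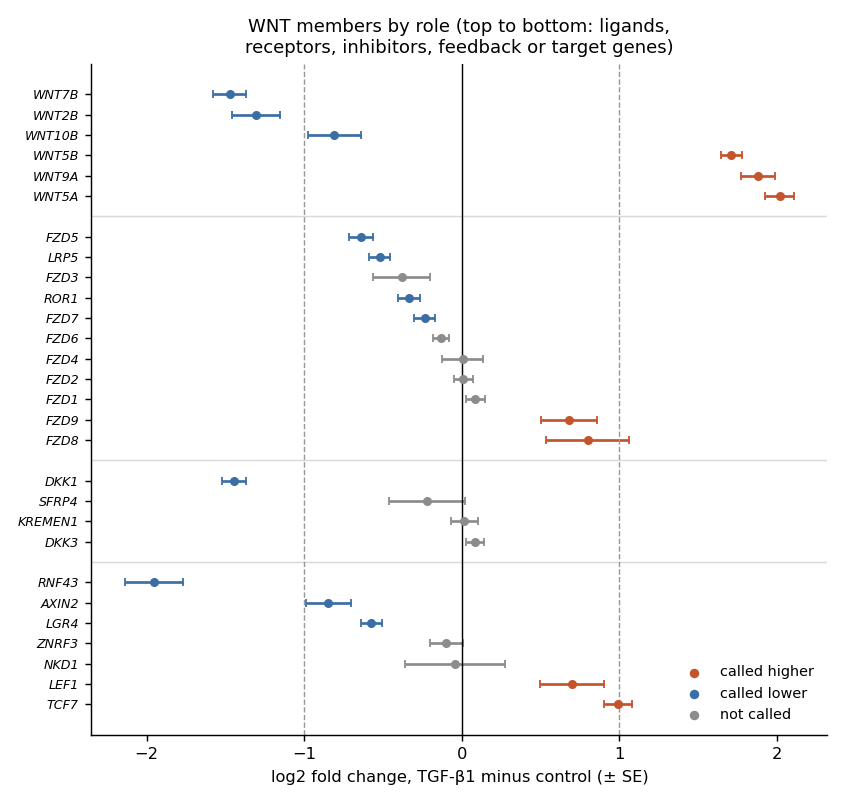
Log2 fold change of TGF-β1 over control for the 28 WNT genes tested, with the standard error from the edgeR fit of 3 libraries against 3. Rows are grouped by role and dashed lines mark a 2-fold change. The 6 ligands lie far to either side of 0, from -1.47 to 2.02, whereas the FZD receptors lie between -0.64 and 0.80.

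All 6 ligands tested were called changed, against 44.3% of all genes. WNT5A, WNT5B and WNT9A rose and WNT7B, WNT2B and WNT10B fell. WNT5A, on chromosome 3 at 55465715-55505261 (hg38, as for all coordinates here), is the ligand most closely tied to signaling without β-catenin. Its level in the control libraries was 15.5, 12.3 and 14.7 CPM (counts relative to library size, scaled by TMM), and in the TGF-β1 libraries 52.7, 60.6 and 58.6 CPM. The lowest TGF-β1 library was far above the highest control library. The log2 fold change was 2.02 ± 0.09 (SE, n = 3 per group, edgeR adjusted p = 2.7e-08), a 4.05-fold rise.

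WNT5B, its paralog on chromosome 12 at 1529856-1647213, rose from 42.7, 41.2 and 38.1 CPM to 141, 128 and 130 CPM. All TGF-β1 libraries lay above all control libraries, with a log2 fold change of 1.71 ± 0.07 (edgeR adjusted p = 8.1e-09). WNT9A, on chromosome 1 at 227918656-227947932, had 2.84, 3.11 and 2.86 CPM in control and 10.4, 11.3 and 10.7 CPM after TGF-β1. It rose 3.68-fold from a level of 64 to 76 reads per control library, with little spread inside either group.

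WNT7B lies on chromosome 22 at 45920362-45977162 and encodes a ligand that can signal through β-catenin. It had 25.7, 27 and 24.2 CPM in control and 10.7, 9.10 and 7.83 CPM after TGF-β1. The groups were well apart, and the log2 fold change was -1.47 ± 0.10 (edgeR adjusted p = 1.0e-06), so that the control level was 2.78-fold the TGF-β1 level. WNT2B, another ligand able to act through β-catenin, lies on chromosome 1 at 112466541-112530165 and had 4.48, 4.86 and 4.99 CPM in control against 1.73, 2.19 and 1.86 CPM. It fell by 1.31 on the log2 scale (SE 0.15). Of the exonic bases of WNT2B, 39.2% also belong to exons of ST7L on the other strand. How the counting treated strand is not stated in the sources used here, so reads of these genes may be mixed, and ST7L was not called (log2 fold change 0.02). WNT10B, also a β-catenin ligand, fell from 2.97 ± 0.13 to 1.69 ± 0.18 CPM (SD, n = 3), with -0.81 ± 0.17 on the log2 scale (edgeR adjusted p = 0.0024).

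**Figure D2:**
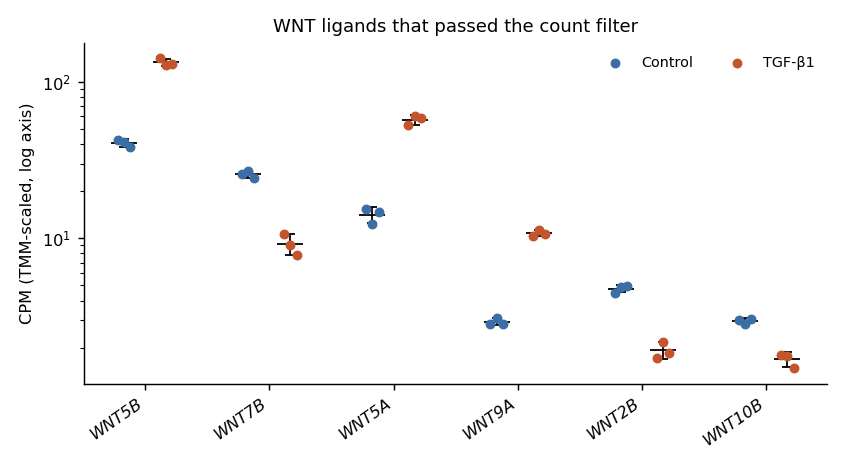
Level of the 6 WNT ligands that passed the count filter, in TMM-scaled CPM on a log axis. Points are libraries, and the horizontal line and bar are the mean and SD of 3 libraries per group. No TGF-β1 point of any ligand falls within the range of its control points, and WNT5A passes WNT7B after TGF-β1.

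To compare ligands with one another, levels per length were needed, and the deposited TPM values were used. In control, WNT5B was the highest ligand with 34.9 ± 1.41 TPM (SD, n = 3), ahead of WNT7B with 20.5 ± 0.945 TPM. WNT5A came next with 3.20 ± 0.360 TPM, above WNT10B and WNT9A with 2.20 and 2.09 TPM, whose library values overlapped, and WNT2B with 1.30 TPM. After TGF-β1 the order was WNT5B with 105 ± 2.67 TPM, WNT5A with 12 ± 1.18, and then WNT9A and WNT7B with 7.10 and 6.76 TPM. The last pair overlapped between libraries, so their order is not resolved. WNT10B and WNT2B stood at 1.15 and 0.483 TPM.

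The sum of the 18 ligands was 65.8, 65.9 and 63.0 TPM in control and 135, 133 and 131 TPM after TGF-β1. WNT5B made up 53.7 ± 0.909% of this sum in control and 79.0 ± 1.03% after TGF-β1, and the share of WNT7B was 31.6% and 5.07%. WNT5A and WNT5B together held 58.7 ± 1.11% and 87.9 ± 0.491%. No ligand other than WNT5B held over 10% of the ligand mRNA after TGF-β1. The shares carry no test of their own. They do not depend on how libraries were scaled to one another, since they are ratios within a library.

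**Figure D3:**
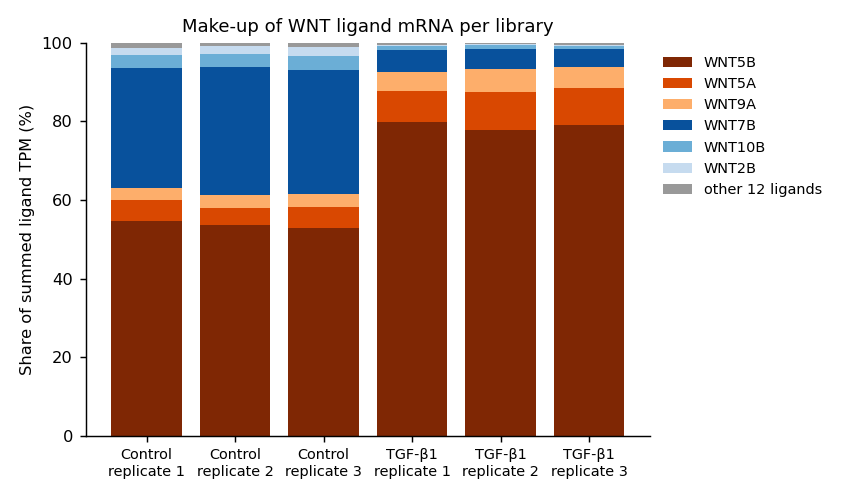
Share of each ligand in the summed TPM of the 18 WNT ligands, in percent, 1 bar per library. WNT5B takes 53.7% of the sum on average in control and 79.0% after TGF-β1, while WNT7B shrinks from 31.6% to 5.07%.

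The other 12 ligands were under the filter. WNT6, WNT7A and WNT9B had no read in any library, where 0 reads over the 6 libraries allow a level of up to 0.0212 CPM (3 counts, counting error only). WNT4, a ligand required for nephron formation, had 23 control reads and 11 TGF-β1 reads. Their ratio at equal depth was 0.440, with a 95% exact interval of 0.194 to 0.939 that covers counting error only. Its 3 control libraries were above its 3 TGF-β1 libraries, for which the exact permutation test gives its smallest possible p of 0.1, and in a fit of all genes with a count it was not called (edgeR adjusted p = 0.18). WNT10A had 16 and 8 reads. WNT1, WNT2, WNT3, WNT3A, WNT8B, WNT11 and WNT16 had between 1 and 6 reads per group, WNT11 with 1 and 6, at which depth a difference was not detectable.

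The receptors moved less than the ligands. Of 14 receptors and coreceptors 11 were tested and 6 called (54.5%, against 44.3% of all genes), 2 higher and 4 lower, none by 2-fold. FZD6 and FZD2 were the highest in TPM. FZD6, a Frizzled receptor tied to planar polarity, had 161, 168 and 167 TPM in control and 128, 145 and 145 TPM after TGF-β1. In TMM-scaled CPM, which is the scale of the test, it had 190, 195 and 191 against 167, 179 and 181 CPM. The groups did not overlap, but the difference was small and not called (log2 fold change -0.13 ± 0.05, edgeR adjusted p = 0.064). FZD2 had 71.3, 70.2 and 67.8 CPM in control and 74.9, 66.8 and 68.7 CPM after TGF-β1. On this scale the groups overlapped, with a log2 fold change of 0.01 ± 0.06. In TPM, which are not TMM-scaled, the control libraries of FZD2 had 61.7, 61.7 and 60.8 and the TGF-β1 libraries 58.9, 55.4 and 56.3, without overlap. FZD6 made up 56.6 ± 0.644% of the summed TPM of the 10 Frizzled genes in control and 55.5 ± 1.27% after TGF-β1, and FZD2 21.1% and 22.8%.

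Among the other Frizzled receptors, FZD5 fell from 28 ± 1.08 to 18 ± 1.65 CPM (SD, n = 3), or by 0.64 on the log2 scale (SE 0.08). The exons of FZD5 share 1482 bases (16.0% of its exonic length) with CCNYL1 on the other strand, which was also called lower by 0.55, so the size for FZD5 is uncertain. FZD7, a widely used receptor of β-catenin signaling, fell from 46.9 ± 0.865 to 39.9 ± 2.92 CPM, with a change of -0.23 ± 0.07 on the log2 scale (edgeR adjusted p = 0.014), and this call was lost without control replicate 1 (edgeR adjusted p = 0.05001) or control replicate 2 (0.0565). FZD8 and FZD9 rose from low levels. FZD9 went from 1.79 ± 0.267 to 2.86 ± 0.248 CPM. FZD8 had 18, 16 and 11 reads in control and 27, 25 and 27 after TGF-β1 (log2 fold change 0.80 ± 0.26, edgeR adjusted p = 0.03), and its call was lost with DESeq2, with total counts only, and without control replicate 2 or 3 or TGF-β1 replicate 2 or 3 (edgeR adjusted p = 0.0516 to 0.0983). FZD1 (0.09), FZD3 (-0.38) and FZD4 (0.01 on the log2 scale) were not called, although FZD3 and FZD6 were called lower when libraries were scaled by total counts only. FZD6 was also called lower without the first TGF-β1 library and with a mean of at least 50 counts (log2 fold change -0.15, edgeR adjusted p = 0.03 for the latter). Of the exonic bases of FZD4, 18.9% also lie in exons of PRSS23, a far more abundant gene on the other strand. PRSS23 was called higher by 0.31 (edgeR adjusted p = 0.0011), so the value for FZD4 is uncertain. FZD10 had no read.

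Of the coreceptors, LRP5, which binds WNT together with a Frizzled protein, had 46.3, 47.9 and 43.9 CPM in control and 34.1, 31.3 and 30.9 CPM after TGF-β1. All TGF-β1 libraries were below all control libraries, and it fell by 0.52 on the log2 scale (SE 0.07, edgeR adjusted p = 8.1e-05). ROR1, a receptor tyrosine kinase that binds WNT5A, fell from 67.0 ± 2.56 to 53.1 ± 4.50 CPM, or by 0.34 on the log2 scale (SE 0.07), whereas its ligand WNT5A rose. ROR2, the other WNT5A receptor of this family, had no read in any library. LRP6, the second coreceptor, had 3 reads over all libraries on its primary chromosome. An entry of the same name on an alternate contig, an extra copy of part of the reference genome, held 75, 290 and 68 reads in control and 173, 215 and 440 after TGF-β1. With the entries summed the groups overlapped and LRP6 was not called (log2 fold change 1.0 ± 0.82, edgeR adjusted p = 0.39), so its level is uncertain and its low primary count is no measure of its expression.

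Among the inhibitors, DKK1 alone was called changed, 1 of 4 tested (25%, against 44.3% of all genes). DKK1 is a secreted protein that blocks LRP5 and LRP6 and is itself a β-catenin target, and its gene lies on chromosome 10 at 52314281-52317657. Its level was 73.5, 66.3 and 64.8 CPM in control and 26.9, 23.5 and 24.7 CPM after TGF-β1. The groups were far apart, and the log2 fold change was -1.45 ± 0.07 (edgeR adjusted p = 7.0e-08), with a control level 2.72-fold that after TGF-β1. DKK3, a divergent family member that does not block LRP coreceptors in the manner of DKK1, was the highest inhibitor in TPM, with 230, 246 and 225 TPM in control and 228, 231 and 226 TPM after TGF-β1. In CPM it had 240, 253 and 227 against 262, 251 and 249. The groups overlapped on both scales, and DKK3 was not called (log2 fold change 0.08 ± 0.06, edgeR adjusted p = 0.26). KREMEN1, a membrane protein that works with DKK1, was not called either, with 16.4 ± 0.461 and 16.6 ± 1.60 CPM, and neither was SFRP4, which binds WNT ligands and had 18 to 25 reads per library. In mean TPM, DKK1 stood at 126 in control and 42.4 after TGF-β1, so that DKK3 was the higher of the pair in all 6 libraries.

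The remaining 7 inhibitors were under the filter. DKK2 and SFRP1 had no read, and SFRP2, SFRP5, DKK4 and WIF1, which bind WNT ligands or LRP coreceptors, had at most 3 reads per group. FRZB, a WNT-binding protein of the SFRP family, had 8 reads in each group. No secreted inhibitor other than DKK1, DKK3 and SFRP4 could therefore be compared at this depth.

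The feedback and target genes moved in both directions, with 2 of 7 tested called higher and 3 lower (71.4% called, against 44.3% of all genes). RNF43 encodes a ubiquitin ligase that removes Frizzled receptors from the cell surface, and lies on chromosome 17 at 58352500-58418894. The control libraries held 88, 109 and 81 reads and the TGF-β1 libraries 28, 21 and 23, or 3.90, 4.46 and 3.45 against 1.08, 0.869 and 1.10 CPM. Its change was the largest decrease among the 28 genes, with a log2 fold change of -1.95 ± 0.19 (edgeR adjusted p = 9.8e-06). Exons of RNF43 share 1228 bases with the antisense gene TSPOAP1-AS1, which had 33 and 32 reads and was not called. Its paralog ZNRF3, with the same function, was not called, with 10.6, 10.9 and 12.6 CPM in control and 9.64, 11.8 and 10.4 CPM after TGF-β1.

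AXIN2, a scaffold of the complex that degrades β-catenin and a common readout of β-catenin signaling, had 5.67, 5.56 and 6.05 CPM in control and 2.73, 3.68 and 3.20 CPM after TGF-β1. The groups did not overlap, and AXIN2 fell by 0.85 on the log2 scale (SE 0.14, edgeR adjusted p = 0.00074). LGR4, the R-spondin receptor that shields Frizzled proteins from RNF43 and ZNRF3, was the most abundant gene of this role in TPM. It had 86.5, 87.3 and 88.9 CPM in control and 53.8, 62.5 and 60.3 CPM after TGF-β1, a log2 fold change of -0.57 ± 0.06. NKD1, a feedback inhibitor that binds Dishevelled, had 13, 15 and 10 reads in control and 12, 11 and 14 after TGF-β1 and was not called.

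The TCF/LEF genes TCF7 and LEF1 were called higher. TCF7, on chromosome 5 at 134114681-134148229, encodes the T cell factor TCF1. It had 20.5, 20.6 and 21.2 CPM in control and 47.3, 38.5 and 37.8 CPM after TGF-β1. All TGF-β1 libraries were above all control libraries and the first of them was the highest, with a log2 fold change of 0.99 ± 0.09 (edgeR adjusted p = 5.9e-06) that was 0.86 without that library. LEF1 had 43, 35 and 28 reads in control and 60, 60 and 54 after TGF-β1, a log2 fold change of 0.70 ± 0.20 (edgeR adjusted p = 0.016). The call for LEF1 was lost with DESeq2 and without control replicate 2 (edgeR adjusted p = 0.0594) or 3 (0.0629). LGR5, a receptor related to LGR4 and a stem cell marker, was under the filter with 0, 1 and 1 reads in control and 6, 5 and 3 after TGF-β1. The groups did not overlap, and the ratio of 14 to 2 reads at equal depth was 6.44 with a 95% exact interval of 1.48 to 58.4 for counting error only (exact permutation p = 0.1, the smallest possible). In a fit of all genes with a count, LGR5 was called higher (edgeR adjusted p = 0.029).

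**Figure D4:**
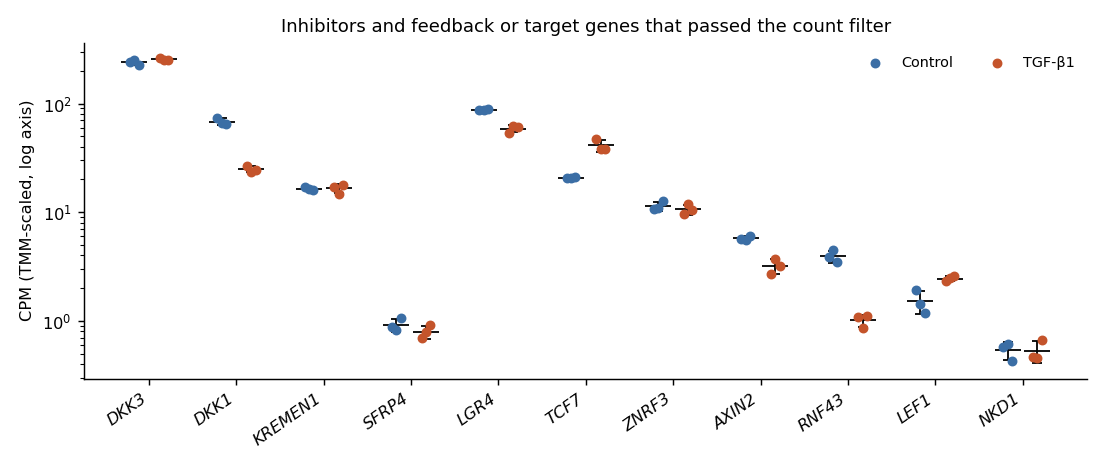
Level of the 4 inhibitors and 7 feedback or target genes that passed the count filter, in TMM-scaled CPM on a log axis, with the mean and SD of 3 libraries per group. DKK1, LGR4, AXIN2 and RNF43 lie lower after TGF-β1, TCF7 and LEF1 lie higher, and DKK3, KREMEN1, SFRP4, ZNRF3 and NKD1 overlap.

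Promoters of RefSeq (GRCh38.p14) were found for 33 of the 51 genes, 38 promoters in all, and the 250 bases before each start were searched on both strands for TCF/LEF letters (CTTTGAT or CTTTGTT), the AP-1 motif TGAGTCA and the SMAD palindrome GTCTAGAC, and on the sense strand for TATAAA. TCF/LEF letters were held by 6.60% of all 35116 promoters and by 2 of the 38 (5.26%), those of DKK1 and of a downstream start of TCF7. The AP-1 motif was found in 4.20% of all promoters and, among these genes, before a downstream start of RNF43. The SMAD palindrome was in 0.182% of all promoters and in none of these. TATAAA was in 6.80% of all promoters and in those of DKK1 and FZD8. The 3 promoters with a TCF/LEF or AP-1 match are shown. DKK1, TCF7 and RNF43 were called changed, as were 64.3% of the 28 WNT genes tested. A link between matches and calls was not tested. Capitals mark the matches, and each sequence is written 5′ to 3′ on the strand of its gene and ends at the base before the start. DKK1 is at chr10:52314031-52314280 (plus strand), with CTTTGTT 76 bases and TATAAA 30 bases before the start. TCF7 is at chr5:134123368-134123617 (plus strand), with the reverse complement AACAAAG of CTTTGTT 50 bases before the start. RNF43 is at chr17:58402722-58402971 (minus strand), with TGAGTCA 47 bases before the start.
DKK1: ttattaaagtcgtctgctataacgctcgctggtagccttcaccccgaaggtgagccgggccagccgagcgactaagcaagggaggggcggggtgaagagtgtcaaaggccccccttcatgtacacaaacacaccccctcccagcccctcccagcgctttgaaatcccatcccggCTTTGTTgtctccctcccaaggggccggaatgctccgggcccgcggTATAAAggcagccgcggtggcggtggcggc
TCF7: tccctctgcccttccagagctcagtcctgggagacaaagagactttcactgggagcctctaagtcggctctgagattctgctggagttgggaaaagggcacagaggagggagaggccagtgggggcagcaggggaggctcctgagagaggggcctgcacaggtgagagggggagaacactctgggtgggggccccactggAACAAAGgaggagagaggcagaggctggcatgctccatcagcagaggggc
RNF43: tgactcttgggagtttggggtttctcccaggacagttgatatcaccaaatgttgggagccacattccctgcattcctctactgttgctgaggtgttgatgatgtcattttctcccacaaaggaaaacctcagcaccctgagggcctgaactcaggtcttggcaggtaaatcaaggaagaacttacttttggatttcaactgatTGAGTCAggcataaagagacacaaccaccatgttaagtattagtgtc
A match is a run of letters and not a measured binding site, and counts per gene do not say which start was used.

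Beyond these genes, 71 other genes of the WNT pathway were examined, of which 53 were tested. Of these 34 were called (64.2%, against 44.3% of all genes), 24 higher and 10 lower, with a median log2 fold change of 0.15. In the nuclear step 8 of 14 genes were called higher and 3 lower (78.6% called, against 44.3% of all genes). CTNNB1, the gene of β-catenin itself, had 270, 256 and 260 CPM in control and 320, 341 and 370 CPM after TGF-β1. The groups did not overlap, and it rose by 0.39 ± 0.06 on the log2 scale (edgeR adjusted p = 0.00047). TLE3, a Groucho corepressor of TCF/LEF factors, had 23.6, 23.3 and 20.6 CPM in control and 64.2, 61.3 and 64.2 CPM after TGF-β1, a log2 fold change of 1.49 ± 0.07. The related TLE2 rose by 1.15 ± 0.40 from 8 to 17 reads per control library, with overlapping groups, and its call was lost without control replicate 1 or 3 or TGF-β1 replicate 1 or 2 (edgeR adjusted p = 0.0895 to 0.131). CTNNBIP1, which keeps β-catenin from TCF factors, rose by 0.83 ± 0.14 and BCL9L, a β-catenin coactivator, by 0.71 ± 0.06. Genes of both kinds also fell, with log2 fold changes of -0.53 for the corepressor TLE1 and of -0.42 and -0.24 for the coactivators BCL9 and PYGO1. The other TCF genes of this step were TCF7L2, which rose by 0.21, and TCF7L1, which was not called (0.04).

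Of the ligand export genes, PORCN, which attaches the lipid to WNT proteins, rose from 13.8 ± 0.595 to 18.3 ± 1.11 CPM. WLS, the carrier that brings WNT proteins to the cell surface, had 75.5, 71.1 and 71.5 CPM in control and 69.5, 73.4 and 75.1 CPM after TGF-β1 and was not called. NOTUM, which removes the lipid from WNT proteins, rose by 0.63 ± 0.22, and its call was lost without control replicate 2 or 3 or TGF-β1 replicate 1 or 2 (edgeR adjusted p = 0.0653 to 0.145). Of the other receptors, PTK7, a WNT coreceptor of the polarity branch, rose by 0.61 ± 0.10. RYK, of the same group, was called higher by 0.17 ± 0.05 (edgeR adjusted p = 0.015). Its call was lost without control replicate 1 or 2 or TGF-β1 replicate 2 (edgeR adjusted p = 0.0633 to 0.0738). In the polarity branch 6 of 10 genes were called (60%, against 44.3% of all genes), 3 higher and 3 lower. PRICKLE2, a core polarity protein, rose from 26.4 ± 2.13 to 70 ± 1.5 CPM, while its paralog PRICKLE1 fell by 0.44.

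The group of the degradation complex also held CSNK1G1 and the Dishevelled and tankyrase genes, which are not core parts of that complex. In this group 6 of 13 genes (46.2%) were called, a share near the 44.3% of all genes. APC, APC2, CSNK1A1 and DVL1 were the 4 called higher, and AXIN1 and DVL2 the 2 called lower. No log2 fold change was over 0.55 in size. The calls of APC, APC2 and AXIN1 were each lost without some single libraries. Of the 7 other target genes tested, 5 were called higher and 1 lower (85.7% called, against 44.3% of all genes). Those higher were MYC, CCND1, TNFRSF19, PPARD and BAMBI, and CD44 fell by 0.26. SP5 was not called (log2 fold change -0.30, edgeR adjusted p = 0.22), but was called lower without TGF-β1 replicate 1 (-0.53, edgeR adjusted p = 0.035). TNFRSF19, a TNF receptor family member, was the one past 2-fold, with 58.5, 55.9 and 53.4 CPM in control and 142, 169 and 165 CPM after TGF-β1 (log2 fold change 1.5 ± 0.07). BAMBI, a pseudoreceptor that dampens TGF-β signaling, rose by 0.64 ± 0.20, a call lost without control replicate 1 or 3 or TGF-β1 replicate 2 or 3 (edgeR adjusted p = 0.0515 to 0.0769). Of the R-spondins and LGR6, 0 of 5 passed the filter, and of the further inhibitors SOST, SOSTDC1, APCDD1, DKKL1, DRAXIN and NKD2, 0 of 6. Among the latter, DRAXIN had 1 control read and 12 TGF-β1 reads without overlap, and edgeR called it higher (adjusted p = 0.023) when no filter was set beyond a count.

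**Figure D5:**
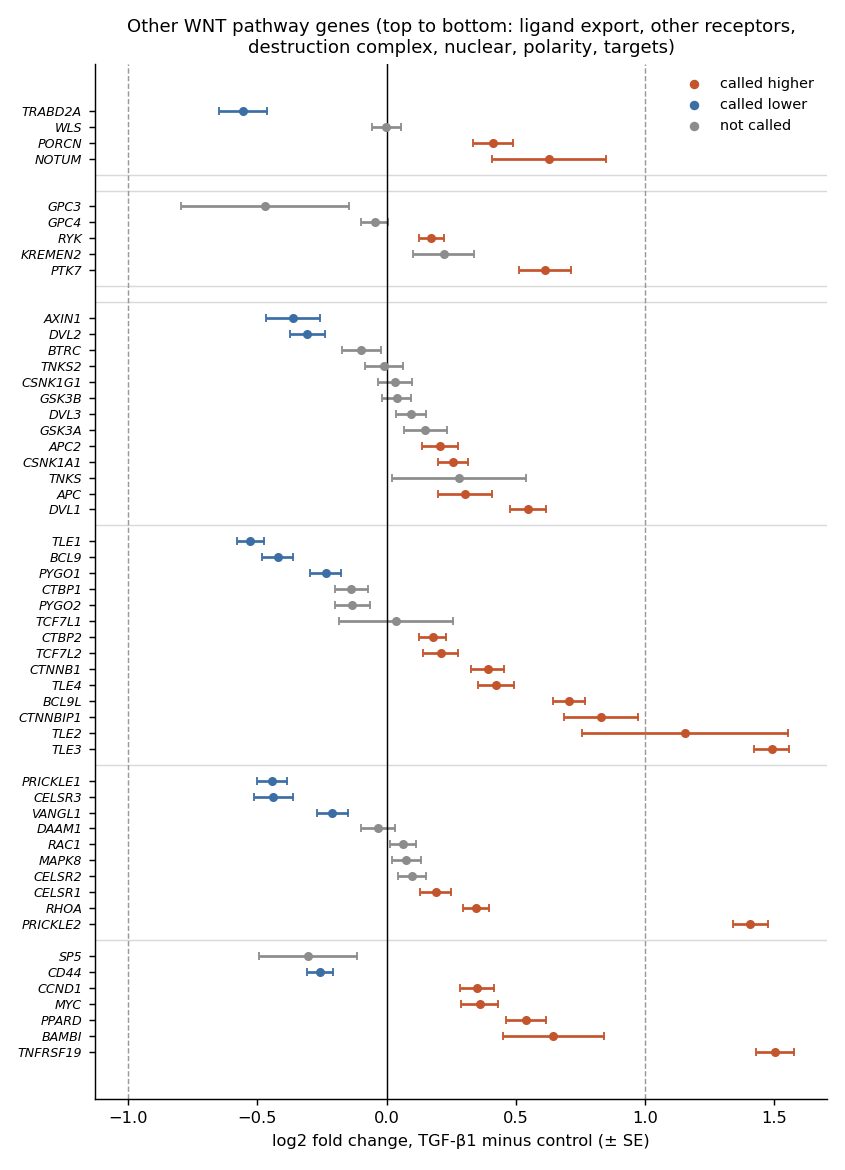
Log2 fold change of TGF-β1 over control with its standard error for the 53 other WNT pathway genes tested, grouped by step, with dashed lines at a 2-fold change. TNFRSF19, TLE3, PRICKLE2 and TLE2 lie beyond the upper line, from 1.15 to 1.5, and no gene lies beyond the lower line.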

How the data were processed

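HK-2 mRNA captured on oligo(dT) beads was sequenced from 3 control and 3 TGF-β1 libraries, 21.94 to 26.91 M counts each. Per the submitters' processing notes, CASAVA, featureCounts 2.0.1 and DESeq2 1.16.1 were used on hg38. The aligner, the annotation and the strand setting are not given in the sources used here. The authors deposited raw counts per gene, and the TPM and FPKM values in the same tables were also computed by the authors. TPM served to compare genes, and FPKM only to repeat the sums over roles. Entries without a gene name (0.396% to 0.464% of counts) were left out, and 7 broken records per table were rejoined.

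Genes were kept with filterByExpr (minimum count 10), scaled with TMM and compared with the two-sided quasi-likelihood F test of edgeR 4.0.16 (R 4.3.3), with Benjamini-Hochberg adjustment over 14860 genes. A gene was called at an adjusted p under 0.05. The SE was the size of the log2 fold change divided by the square root of F. CPM used TMM-scaled library sizes, whereas deposited TPM were not TMM-scaled. Scripts were tested on simulated data. Nothing in the labels says that libraries came from separate cultures, so p-values measure the spread between these libraries, which may be technical. Same-numbered libraries did not deviate together (correlations 0.111, -0.0117 and 0.0762).

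Alternatives were DESeq2 1.42.0, limma-voom 3.58.1, RLE factors, total counts only, other count filters, entries of a name summed, leaving out each library and a replicate block. The genes, lists, motifs and tests were chosen with earlier results of these data known. All 51 genes are named. Values in every library are given for genes called with a log2 fold change of at least 1, for the 2 highest genes of each role by TPM, and for the tested feedback and TCF/LEF genes. From the pathway list, called genes with a log2 fold change of at least 0.58 are named, with CTNNB1, WLS and PORCN. The library values of WNT11, FZD8, LRP5, CTNNB1, WLS, TLE3 and TNFRSF19 were added after their values were seen. So was the mention of PRICKLE1, TLE1, BCL9, PYGO1, TCF7L1, TCF7L2, DRAXIN, RYK, genes of the degradation complex group and single cell type markers. The targets SP5, MYC, CCND1, PPARD and CD44 were also named after their values were seen. Another gene of the check on the TGF-β1 response is not reported here.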

Additional observations from a re-analysis of the deposited data

How the results depend on the processing

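No log2 fold change that was called changed its sign under any alternative run. Scaling by total counts only was the one setting that moved a count by over 1.5 times, with 2134 of all genes called higher instead of 3294 and 4590 lower instead of 3288, so that 31.7% of calls were higher instead of 50.05%. It moved the median of all genes by -0.11, and under it 6 WNT genes were called higher and 13 lower. DESeq2 called 5 higher and 11 lower. With all genes that had a count, LGR5 was added to the genes called higher, which gave 8, and with a mean of at least 50 counts 5 were called higher and 12 lower. Leaving out each library in turn gave 5 to 7 WNT genes higher and 10 to 12 lower, 16 to 23 other pathway genes higher and 9 to 12 lower, and 2621 to 3503 of all genes higher and 2669 to 3635 lower. WNT5A, WNT5B, WNT9A, WNT7B, WNT2B, DKK1 and RNF43 were called in every one of these fits. With the replicate number as a replicate block, 7 WNT genes were called higher and 11 lower, the same genes as without it, and 3396 of all genes higher and 3394 lower. The block rests on a shared number only, since same-numbered libraries did not deviate together. Depth limited the 23 WNT genes under the filter, except for LRP6, most of whose reads lay on an alternate contig. NKD1, with the fewest reads of those tested, had a standard error of 0.31.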
